A study of Homo sapiens with 16 samples.

Results

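The subject is a set of 175 probes whose signal was at least 0.8 log2 units below control after 12 h with each of 2 drugs, out of 24350 human probes on the array. The cells were HT1080, a human fibrosarcoma line. They were grown in complete medium and given A0, a thioxotriazole copper(II) complex, or cisplatin, each at 25 µM. A0 was sampled at 1, 3, 6 and 12 h and cisplatin at 3, 6 and 12 h, with 2 single-colour Illumina bead arrays in each of these 7 groups and 2 arrays of control cells, 16 arrays in all. No label states when the controls were taken or what they received, so the controls are not matched in time and a drug response cannot be told apart from handling or culture time in any comparison with them. Nothing in the labels ties the 2 arrays of a group to separate cultures, and p-values therefore reflect the spread between arrays alone, which may be technical.

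The members were chosen on the authors' processed intensities, with values under 32 raised to 32 and log2 taken. A member had a mean difference from the 2 controls of at most -0.8 at A0 12 h and at cisplatin 12 h, and a detection score of at least 0.99 on both control arrays. Of 8264 probes detected on both controls, 7460 were bright enough to fall by that much above the floor of 32, and these are called eligible below. At the edge of the rule, the member closest to the threshold stood at -0.81 with A0 and -0.801 with cisplatin, and the closest probe outside it at -0.797 with A0 and -1.35 with cisplatin. There were 54 members within 0.1 log2 units inside the threshold and 61 probes within 0.1 outside it. Because the rule used the control arrays and all 4 arrays at 12 h, differences from control are descriptions without a test, and tests are given only for differences between other groups. Their error estimate is shared over all 16 arrays, so it also draws on the controls and the 12 h arrays.

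Cisplatin is a platinum drug that binds DNA and forms crosslinks, which hinder replication and transcription. A0 belongs to the copper complexes studied for paraptosis, a form of cell death without the features of apoptosis in which the endoplasmic reticulum swells into vacuoles. The level of an mRNA is set by its synthesis and its decay, and an array reads the outcome of both. A fixed mass of total RNA was labelled for each array, so a lower signal is a smaller share of the RNA, and fewer transcripts per cell cannot be told apart from more RNA of other kinds. The probes are named by GI sequence numbers, which the files do not pair with gene names, and 0 of the numbers matched a gene identifier in the reference table, so no gene, pathway or marker of the cell type could be named and no sequence is printed. At most 4 probes are given by their number.

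The arrays differed in brightness. The factor that turns an array's signal into the authors' processed value ran from 0.848 to 2.553, where a higher factor marks a dimmer array, and an array detected from 7626 to 9640 probes. The controls had factors of 1.00 and 1.07. At 12 h the factors were 2.55 and 1.37 with A0 and 1.76 and 0.921 with cisplatin. Of the 175 members, 97 and 100 were detected on the A0 12 h arrays and 79 and 146 on the cisplatin 12 h arrays. The part of brightness in the members' values was not tested.

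The members' normalised log2 signal in control had a median of 6.94 and ran from 5.88 to 13.72, against a median of 7.71 for the eligible probes. The suffixes of the probe numbers, which mark probes for genes with a single transcript (S), for all variants of a gene (A) or for 1 variant (I), divided the members into 149, 18 and 8. That is 85.1%, 10.3% and 4.57%, against 82.8%, 12.2% and 4.95% of the eligible probes. The mean bead number per probe had a median of 42.4 among members and 42.6 among eligible probes. A probe's signal also depends on its binding, so no order of transcript levels is read from these values.

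The members' signal stepped down with time in both drugs, between controls and 12 h arrays that the rule itself set apart. The median log2 level over the 175 members was 6.94 and 6.96 on the 2 control arrays. With A0 the 1 h arrays gave 6.45 and 6.50, the 3 h arrays 6.38 and 6.51, the 6 h arrays 6.20 and 6.37, and the 12 h arrays 5.92 and 5.87. The cisplatin arrays gave 6.31 and 6.44 (3 h), 6.10 and 6.04 (6 h), and 5.55 and 6.02 (12 h). Every treated array lay below both controls, and no array of A0 12 h overlapped the A0 arrays of earlier times. The rule chose probes high on these controls and low on these 12 h arrays, so nothing is read from either separation. Between the other A0 times the steps were small, and A0 3 h replicate 2 lay above both A0 1 h arrays. The 2 cisplatin 12 h arrays were farther apart than the arrays of any other group, and replicate 2 of them lay close to the cisplatin 6 h arrays.

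As a difference from the control mean, the members' median was -0.46 at A0 1 h, -0.58 at 3 h, -0.71 at 6 h and -1.13 at 12 h on the normalised log2 scale. With cisplatin it was -0.59 at 3 h, -0.93 at 6 h and -1.04 at 12 h. Array by array, the 12 h median was -1.06 and -1.19 with A0 and -1.29 and -0.89 with cisplatin. The eligible probes stayed between -0.07 and -0.02 in the same groups. The scaling moved these by up to 0.2: at A0 12 h the eligible median was -0.07 on the normalised scale, 0.13 on the authors' processed scale and -0.17 after 75th percentile centring, and the members' median was -1.13, -1.18 and -1.15. The 12 h value of cisplatin rested on unlike arrays, being -0.89 without replicate 1 and -1.29 without replicate 2.

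The members past the threshold were counted at each time, and a difference in timing between members was not tested. On the processed scale, 42 of the 175 members, or 24.0%, were at or below -0.8 at A0 1 h, where 5.31% of the eligible probes were. The count rose to 54 (30.9%) at 3 h and 79 (45.1%) at 6 h, beside 4.54% and 6.84% of eligible probes. With cisplatin it was 49 (28.0%) at 3 h and 125 (71.4%) at 6 h, beside 3.74% and 7.72%. At 12 h all 175 are past the threshold by the rule, beside 11% of eligible probes for A0 and 10.4% for cisplatin, and nothing is read from that. The earlier groups share the control arrays with the rule, which favoured probes that read high on those arrays, so these shares are raised by the choice.

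Counting from the time after which a member stayed past the threshold, 25 members were low from A0 1 h on, 17 from 3 h, 37 from 6 h and 96 only at 12 h. With cisplatin, 47 were low from 3 h on, 78 from 6 h and 50 only at 12 h. Over the same 3, 6 and 12 h, A0 gave 42, 37 and 96. These classes were not counted over the eligible probes. Since the rule put every member past the threshold at 12 h, the 12 h classes are those not past it at 6 h, and no timing is read from them. At A0 1 h the members spread widely around their median, from -2.20 to 0.71 on the normalised scale, and 33 of the 175 stood above control there. The number above control was 16 at A0 3 h and 2 at A0 6 h, and with cisplatin 6 at 3 h and 0 at 6 h. Of the 7460 eligible probes, 3397, 3379 and 3346 stood above control at A0 1, 3 and 6 h. With cisplatin 3381 did at 3 h and 3434 at 6 h. The rule favoured probes that read high on the control arrays, which lowers the members' counts.

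Fewer members were detected in the treated groups. All 175 members were detected on both control arrays by the rule. On both arrays of a group, 141 were detected at A0 1 h, 121 at 3 h, 124 at 6 h and 80 at 12 h, and with cisplatin 121 at 3 h, 120 at 6 h and 78 at 12 h. These counts on both arrays hardly moved between 3 and 6 h in either drug, while members undetected on both cisplatin arrays rose from 4 to 24. Between 90% and 96.4% of the eligible probes were detected on both arrays in these groups. Neither array detected 4, 5, 7 and 58 members at these A0 times, and 4, 24 and 28 at the cisplatin times. Among eligible probes the share undetected on both arrays was 0.509%, 0.241%, 0.925% and 4.12% at A0 1, 3, 6 and 12 h. With cisplatin it was 0.469%, 1.10% and 1.60% at 3, 6 and 12 h. Eligible probes were brighter in control than members (median 7.71 against 6.94), and the part of this in detection was not tested. There were 60 members detected on all 4 arrays at 12 h and 17 detected on none of them, and for undetected members the drop is only a bound. Divided at the median of their mean level over all arrays, the members' medians at 12 h were -1.18 and -1.04 with A0 and -1.14 and -1.0 with cisplatin in the brighter and the dimmer part.

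The rule could also be applied to 1 array of each group and read on the other. This chooses partly different probes: 113 of the 209 chosen on the arrays numbered 1 and 125 of the 292 chosen on those numbered 2 are among the 175 members. The numbers also differ in brightness, since replicate 1 had fewer probes detected in all 8 groups and the higher factor in all 7 treated groups. The 209 probes chosen on the arrays numbered 1 were read on those numbered 2, where 72 of them, or 34.4%, were again at or below -0.8 with both drugs at 12 h, against 3.1% of the probes that could have been chosen. The 292 probes chosen on the arrays numbered 2 gave 72, or 24.7%, against 2.35%. Since the 2 arrays of a group may share a culture, these shares describe repeatability between arrays only. The held-out medians were smaller than those on the arrays that chose the probes. At A0 12 h the median was -0.82 on held-out arrays against -1.21 on the choosing arrays for the first set, and -0.69 against -1.06 for the second. At cisplatin 12 h it was -0.58 against -1.20 and -0.80 against -0.89.

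Held-out arrays also gave a course over time on arrays that the choice did not use. The 2 arrays of a group may share a culture, and all 16 arrays were normalised together. The course is therefore a description and not independent of the choice. Read on the arrays numbered 2, the medians were -0.29, -0.31, -0.47 and -0.82 at A0 1, 3, 6 and 12 h, and -0.30, -0.63 and -0.58 at cisplatin 3, 6 and 12 h. Read on the arrays numbered 1, they were -0.20, -0.36, -0.53 and -0.69 with A0 and -0.32, -0.61 and -0.80 with cisplatin. Both readings stepped down over the A0 course and lay lower with cisplatin than with A0 at 6 h. Their order at 12 h was opposite, A0 being lower on the arrays numbered 2 and cisplatin on those numbered 1. Eligible probes lay between -0.07 and -0.01 throughout.

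Changes within each drug before 12 h are differences between arrays the rule did not use, and they were tested for the 175 members together with all 9293 probes tested, by limma with Benjamini-Hochberg adjustment over the 9293. From 1 to 6 h of A0 the members' median change was -0.29, with 130 members lower and 45 higher, against a median of -0.01 over all tested probes. Only 2 members were called lower and 0 higher, that is 1.14%, beside 0.312% of tested probes called lower and 0.344% called higher. At an unadjusted p under 0.05, limma gave 31 members lower (17.7%) and 0 higher, beside 5.79% and 4.49% of tested probes. The 2 calls became 0 when only the groups compared were fitted, where lower calls over all tested probes fell from 29 to 0. They also moved when some single arrays were left out, and so did the calls over all tested probes, so they are not firm. The members' median change stayed between -0.37 and -0.22 with any 1 array left out.

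From 3 to 6 h of cisplatin the members' median change was -0.35, with 144 members lower and 31 higher, against 0.02 over all tested probes. Limma called 1 member lower and 0 higher (0.571%, beside 0.0968% and 0% of tested probes), and at an unadjusted p under 0.05 limma gave 41 lower (23.4%) and 0 higher, beside 4.98% and 4.71% of tested probes. The call was lost when only the groups compared were fitted, where lower calls over all tested probes fell from 9 to 0. It also moved when some single arrays of these groups were left out, and so did the calls over all tested probes. The members' median change stayed between -0.42 and -0.33 with any 1 array left out. Between 3 and 6 h of A0 the median was -0.19 and limma called 0 members, with 11 lower and 2 higher at an unadjusted p under 0.05 (6.29% and 1.14%, beside 3.00% and 2.17% of tested probes). Between 1 and 3 h of A0 it was -0.15, again with 0 limma calls and 6 lower and 0 higher at an unadjusted p under 0.05 (3.43% lower, beside 2.04% lower and 1.84% higher of tested probes). Over all tested probes limma called 0% in each direction in both of these comparisons. The median standard error of a member's change was 0.31, so single changes of the size of these medians could not be told from error.

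The change from 1 to 6 h of A0 and that from 3 to 6 h of cisplatin have no array in common. Both were negative in 112 of the 175 members, or 64%, and in 26.7% of all tested probes. Taken singly, the A0 change was negative in 74.3% of members and 51.2% of tested probes. The cisplatin change was negative in 82.3% and 47.8%. Whether the joint share exceeds what these separate shares give was not tested. Across members they correlated with a Pearson r of 0.36 and a Spearman rho of 0.36 (n = 175 probes), against 0.12 and 0.13 across the 9293 tested probes. Probes of the same arrays share normalisation and are not independent replicates, so this is a description.

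The drugs were set against each other at matched dose and time. At 3 h the members' median difference, A0 minus cisplatin, was 0.02, and limma called 0 members, beside 0.0108% of tested probes called in each direction. At an unadjusted p under 0.05 it gave 6 lower and 6 higher (3.43% each), near the 2.70% and 2.77% of tested probes. At 6 h the median difference was 0.21, with 117 members higher and 58 lower with A0, against a median of 0.00 over all tested probes. In all, 10 members, or 5.71%, were called higher with A0 and 2, or 1.14%, lower, beside 3.29% and 4.84% of tested probes. Both directions together thus held 12 members, a share near the background, and their split ran the other way from that of all probes, a difference that was not tested. The 10 higher members differed by 0.91 to 1.79 (limma adjusted p from 0.00142 to just under the threshold), and 2 of them were undetected on both cisplatin 6 h arrays.

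These calls at 6 h depended on single arrays. Fewer members were called higher with A0 when either A0 6 h array or either cisplatin 6 h array was left out. Calls over all tested probes also fell in both directions in each of these fits, so the loss was not particular to the members. The 2 lower calls became fewer without A0 6 h replicate 2 and were lost whichever cisplatin 6 h array was left out. They rose whichever cisplatin 12 h array was left out, and so did the calls over all tested probes. The median difference stayed between 0.16 and 0.31 with any 1 of the 16 arrays left out, but was 0.05 over the 58 members detected on all 16 arrays. The interaction of drug and time, the change from 3 to 6 h with A0 minus that with cisplatin, had a median of 0.15 over the members. Limma called 0 members and 0% of tested probes. At an unadjusted p under 0.05 it gave 0 lower and 13 higher (7.43%), beside 3.97% and 3.20% of tested probes, so a different timing of the drugs was not established for any single member.

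At 12 h, where both groups entered the rule, the members' difference A0 minus cisplatin had a median of -0.04 and ran from -1.58 to 1.84, with 94 members lower and 81 higher with A0. A difference of at least 2-fold was seen in 6 members lower with A0 (3.43%) and 8 higher (4.57%), beside 8.46% and 6.82% of eligible probes, and the rule itself, by asking for a fall in both drugs, narrows this spread. The sign of the median turned with 1 array, to -0.19 without cisplatin 12 h replicate 1 and 0.15 without replicate 2, so no order of the drugs is given at 12 h. The 10 members called higher with A0 at 6 h had a median of -0.53 with A0 and -1.59 with cisplatin at that time. At 12 h their medians were -0.99 and -1.63, and their difference between the drugs ran from -0.12 to 1.84.

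Probes lowered at 12 h by a single drug give a scale for these values. There were 649 probes past the threshold with A0 but not cisplatin, and 602 with cisplatin but not A0. At 6 h the A0 minus cisplatin median was -0.57 in the former and 0.54 in the latter, against 0.21 in the members. Limma called 169 of the 649 lower (26.0%) and 1 higher (0.154%) with A0, and 124 of the 602 higher (20.6%) and 0 lower. Over all tested probes it called 4.84% lower and 3.29% higher with A0. From 1 to 6 h of A0 the medians were -0.36 and -0.02, against -0.29 in the members, and from 3 to 6 h of cisplatin they were 0.13 and -0.38, against -0.35. The differences between these sets were not tested.

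Among members detected on all 4 arrays at 12 h, GI_32698727-S was the one whose smaller drop of the 2 drugs, on the processed scale, was the deepest. Other members lay lower with 1 of the drugs. A member not detected on all 4 arrays lay lower with both, at -2.28 with A0 and -2.55 with cisplatin against -2.07 and -2.29. The log2 signal of GI_32698727-S was 8.47 and 8.85 in control. The A0 arrays gave 6.63 and 7.02 (1 h), 7.09 and 6.87 (3 h), 5.92 and 7.33 (6 h), and 6.89 and 6.50 (12 h). The cisplatin arrays gave 6.98 and 7.23 (3 h), 6.23 and 7.38 (6 h), and 6.34 and 6.67 (12 h). All 14 treated arrays lay at least 1 log2 unit below both controls, already at 1 h of A0 and 3 h of cisplatin, and the treated groups overlapped each other. The difference from control was -1.84 at A0 1 h and -1.96 at 12 h, and -1.55 and -2.16 at cisplatin 3 and 12 h. Later changes were within error: from 1 to 6 h of A0 it changed by -0.20 (SE 0.413, limma adjusted p = 0.929), and A0 differed from cisplatin by -0.18 at 6 h (adjusted p = 0.853), both turning positive without A0 6 h replicate 1, to 0.50 and 0.52, and the latter to 0.39 without cisplatin 6 h replicate 2.

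GI_31543542-S was the member most raised with A0 relative to cisplatin at 6 h. Its log2 signal was 9.36 and 9.48 in control. Under A0 the signal was 8.65 and 8.83 (1 h), 8.29 and 8.85 (3 h), 7.92 and 9.10 (6 h), and 7.87 and 8.22 (12 h). Under cisplatin the signal was 8.20 and 8.08 (3 h), 6.71 and 6.73 (6 h), and 6.55 and 7.39 (12 h). The cisplatin arrays at 6 and 12 h lay below every other array. The difference at 6 h was 1.79 (SE 0.348, limma adjusted p = 0.00677), and without A0 6 h replicate 2 it was 1.20 (adjusted p = 0.0516). Without cisplatin 6 h replicate 2 it was 1.80 (adjusted p = 0.0638), and with only the groups compared the adjusted p was 0.0626. From 3 to 6 h of cisplatin it changed by -1.42 (limma adjusted p = 0.185), which did not pass the threshold.

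GI_5031804-S had the lowest measured difference between A0 and cisplatin at 6 h, although its A0 signal there was undetected and its rank among members is therefore not settled. Its log2 signal was 6.65 and 6.30 in control and 6.14 and 5.82 at cisplatin 6 h, detected on all 4 of these arrays. With A0 it read 5.17 and 5.18 (1 h), 4.74 and 5.24 (3 h), 4.58 and 4.68 (6 h), and 4.39 and 4.44 (12 h), detected on 1 of these 8 arrays, A0 3 h replicate 2. Cisplatin gave 4.93 and 5.91 at 3 h, detected on replicate 2 only, and 4.51 and 5.20 at 12 h, undetected on both arrays. Every A0 array thus lay below the controls and the cisplatin 6 h arrays. The measured difference at 6 h was -1.35 (SE 0.31, limma adjusted p = 0.0168), and because the probe was undetected with A0, it can be given only as at least 1.37-fold lower than with cisplatin, a bound that takes the dimmest detected signal of each A0 array and was not tested. Leaving out any of the 4 arrays compared ended the call (adjusted p at most 0.11), and so did the authors' processed values (-0.87, adjusted p = 0.0789). Against control the probe was at least 1.70-fold lower at A0 12 h and at least 1.93-fold lower at cisplatin 12 h.

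GI_27478738-S was the member highest at A0 1 h. Its log2 signal was 7.11 and 7.22 in control and 7.90 and 7.85 at A0 1 h. Later A0 arrays gave 6.25 and 6.65 (3 h), 6.39 and 6.13 (6 h), and 4.64 and 5.39 (12 h), and the last 2 did not detect it. Under cisplatin it read 6.87 and 6.80 (3 h), 6.78 and 6.49 (6 h), and 6.09 and 6.27 (12 h). Both A0 1 h arrays lay above the controls, and all later arrays of both drugs lay below them. It fell by 1.61 on the log2 scale from 1 to 6 h of A0 (SE 0.243, limma adjusted p = 0.00908), and leaving out either A0 1 h array or A0 6 h replicate 2, or fitting only the groups compared, ended that call (adjusted p at most 0.124). The change from 1 to 3 h was -1.42 (limma adjusted p = 0.127) and did not pass the threshold. Its signal at A0 12 h was lower than in control by at least 2.74-fold, and at cisplatin 12 h its difference from control was -0.99.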

How the data were processed

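RNA was measured on 16 bead arrays. The array files that the authors deposited hold a raw mean bead intensity and a detection score, a fraction between 0 and 1, for each probe, per the file headers. BeadStudio 1.5.1.3 is named in the submitters' processing notes. The authors' deposited table of the whole series gives intensity values after processing, each array being a straight line of its own signal (largest residual 0.0786 to 0.177), with a median of 10.9 to 21.3 per array; how it was normalised is not stated by any source used. Bead numbers, a median of 41 to 42 per probe, were read too.

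Signals were normalised with neqc (offset 16) in limma 3.58.1 under R 4.3.3. A probe was tested if detected (score of at least 0.99) on each array of 1 or more groups, leaving 9293 of 24350 probes, among them all 175 members, which pass through the controls. One linear model over 16 arrays (8 residual and 5.7 prior degrees of freedom) gave 7 comparisons, called at a Benjamini-Hochberg adjusted p of 0.05. The members and gene lists were chosen with earlier results of these data known. The lists could not be used because no probe has a name. Without names, the rule printed at most 4 probes: the deepest by the smaller of its 2 drops at 12 h among those detected on all 4 arrays there, the extremes of the measured A0 minus cisplatin difference at 6 h and the highest at A0 1 h. The number of arrays limits the precision.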

Additional observations from a re-analysis of the deposited data

Results flagged for a closer look

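A0 and cisplatin differed by a direct test at 6 h in 12 members, 2 lower (1.14%) and 10 higher (5.71%) with A0. Over all tested probes 4.84% were called lower and 3.29% higher, so the members' share in both directions together was near the background. The members' calls also moved when single arrays were left out. The bacterial probe lysA, which is outside the comparisons, passed the detection score on 2 arrays (replicate 2 of cisplatin 6 h and of A0 12 h) and on neither control. No group has the 4 arrays that a test for outlying samples needs.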

How the results depend on the processing

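The members' medians were negative in all 7 treated groups under every alternative run. On the arrays that chose the members, the rule largely fixes this sign at 12 h. The earlier groups share its control arrays, so the sign is a description. Without background correction the medians were -0.25, -0.31, -0.37 and -0.56 at A0 1, 3, 6 and 12 h and -0.31, -0.47 and -0.56 at cisplatin 3, 6 and 12 h. It also gave -0.15 for A0 from 1 to 6 h and -0.18 for cisplatin from 3 to 6 h, where 75th percentile centring gave -0.51. For these values and those below, the cause was not tested. With the processed values the median was -1.09 at cisplatin 6 h and -1.18 at 12 h, and with 75th percentile centring -1.08 at 6 h. Members by a threshold of -1 gave -1.27 at A0 12 h and -1.07 and -1.25 at cisplatin 6 and 12 h. The number of members was 99 with a floor of 64, 342 with a threshold of -0.6 and 90 with -1. The same rule on neqc values gave 168 probes, 135 of them members.

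A pair of alternatives was chosen after seeing the data, the reading on held-out arrays and the division by level. Probes chosen by the rule on the arrays numbered 1, 113 of 209 of them members, and read on those numbered 2 gave -0.29, -0.31, -0.47 and -0.82 with A0, -0.30, -0.63 and -0.58 with cisplatin, and -0.25 for A0 minus cisplatin at 12 h. The reverse, with 125 of 292 members, gave -0.20, -0.36, -0.53 and -0.69, -0.32, -0.61 and -0.80, and 0.11.

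Calls were few and moved with the setting. For A0 from 1 to 6 h, 4 members were called lower without background correction, with a trended robust variance or with array weights, 1 among members detected on all 16 arrays and 0 with only the groups compared. Over all tested probes the lower calls were 46, 43, 44, 17 (of 6090) and 0 in these settings, against 29 in the main fit. For cisplatin from 3 to 6 h the count was 0 with 75th percentile centring, among members detected on all 16 arrays or with only the groups compared, and 2 with the processed values or a trended variance. Over all tested probes it was 4, 9 (of 6090) and 0, and 9 and 16, against 9 in the main fit. For A0 from 1 to 3 h, 1 was called lower without background correction or with array weights, beside 1 and 2 of all tested probes. At 6 h the members higher with A0 numbered 13 with the processed values and 11 with 75th percentile centring, against 10 in the main fit. They numbered 8 with a trended robust variance, 7 with array weights, 6 without background correction or at 2-fold and 4 with no filter. There were 3 among those detected on all 16 arrays (median difference 0.047) or among the dimmer members, and 1 with only the groups compared. Those lower numbered 1 with the processed values, among members detected on all 16 arrays, with only the groups compared and in the brighter and the dimmer members each. Over all tested probes the higher calls were 323 with the processed values, 270 with 75th percentile centring, 309 with a trended robust variance and 257 with array weights. They were 291 without background correction, 213 (of 24350) with no filter, 197 (of 6090) among probes detected on all 16 arrays and 75 with only the groups compared. The counts at 2-fold and by brightness are given without a count over all tested probes. The lower calls were 393 with the processed values, 291 (of 6090) among probes detected on all 16 arrays and 132 with only the groups compared.

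With the replicate number as a block, 5 members were called lower for A0 from 1 to 6 h, and at 6 h 5 were lower and 12 higher with A0. Calls over all 9293 tested probes rose too, from 29 to 63 lower for A0 from 1 to 6 h. At 6 h they rose from 450 to 569 lower and from 306 to 381 higher. The labels do not tie the numbers to a batch. Replicate differences of the 28 pairs of groups correlated at -0.26 to 0.38 (median 0.13, 18 over 0.1 and 1 under -0.1), and replicate 1 had fewer probes detected in all 8 groups, so the number went with brightness. With each array left out, the members' calls moved for A0 from 1 to 6 h, cisplatin from 3 to 6 h and the drugs at 6 h. The calls over all tested probes moved too. The cisplatin 12 h median ran from -1.29 to -0.89, the 12 h difference between drugs from -0.19 to 0.15, and the number of members from 170 to 238. For GI_32698727-S, the A0 change from 1 to 6 h ran from -0.90 to 0.50 and the 6 h difference from -0.88 to 0.52 with each array left out, the positive ends without A0 6 h replicate 1.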
